A study of Mus musculus with 48 samples.

Results

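Prlh, Npvf and Qrfp encode precursors of RF-amide peptides, short neuropeptides that end in arginine and an amidated phenylalanine. The 3 genes were taken by symbol from the 21558 genes of a table of mouse hypothalamus RPKM values (read numbers scaled to transcript length and library depth). They were chosen by measured values: Prlh had been seen to differ between early series of one label in these same data, so that difference is given only as a description. The other RF-amide genes of the table, 2 precursors and 5 receptors, are described beside them.

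The table held 48 libraries, each made from the pooled hypothalamus of 3 male C57BL/6 mice, 144 mice in all. The libraries formed 8 series of 6. The late noise unloaded and late noise free-moving series came from mice labelled 3 months old and kept at 85 dBA and 0.9 atm. Late quiet unloaded and late quiet free-moving mice were also labelled 3 months old and were kept at 10 dBA and normal pressure. Early unloaded series b and a and early free-moving series b and a came from mice labelled 2 months old, at 10 dBA and normal pressure. The series' design text gives 2 months for all mice, so the age of the late mice rests on the sample labels. Unloaded mice underwent hind limb unloading, in which the hind limbs bear no weight and which serves on the ground as a model of weightlessness. Series a and b of one kind carry the same labels and are told apart only by the number in their titles. The 6 libraries of a series were numbered 1, 5, 9, 13, 17 and 21 in their titles, with no unit. Every late condition was a single series. Noise cannot be told apart from low pressure, nor age from period, nor a late condition from its series. Nothing in the labels says that pools of one number share mice, and p-values measure the spread between these pools.

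RF-amide precursors are cut beside basic residues by prohormone convertases, trimmed by carboxypeptidase and amidated at a glycine, and each mature peptide acts on a G protein-coupled receptor. Prlh encodes prolactin-releasing peptide, made by neurons of the dorsomedial hypothalamus and the caudal medulla, which lowers food intake in rodents through the receptor Prlhr. Npvf encodes the RFamide-related peptides, made in the dorsomedial hypothalamus, which inhibit reproductive neurons through Npffr1. Qrfp encodes a peptide of the lateral and tuberal hypothalamus that acts through Qrfpr and is tied to feeding and arousal.

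The coding stretches that carry the RF-amide signature show what makes these 3 genes a family. Each stretch of 72 bases ends at a codon for arginine, one for phenylalanine and one for glycine, in capitals, followed by a codon for a basic residue. The sequences come from GENCODE M21 transcripts on GRCm38 and are written in the direction of the gene.
Prlh: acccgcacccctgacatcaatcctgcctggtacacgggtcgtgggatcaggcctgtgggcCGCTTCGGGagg
Npvf first site: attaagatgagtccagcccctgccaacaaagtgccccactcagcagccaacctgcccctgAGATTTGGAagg
Npvf second site: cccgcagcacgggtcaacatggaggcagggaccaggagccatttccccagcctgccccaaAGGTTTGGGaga
Qrfp: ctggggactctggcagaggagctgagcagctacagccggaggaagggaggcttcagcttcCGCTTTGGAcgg
Prlh and Qrfp each held 1 such site, and Npvf held 2. The Prlh stretch is joined across an intron, within chr1:90953198-90953913 on the plus strand. The Npvf stretches lie at chr6:50652721-50652792 and chr6:50652628-50652699 and the Qrfp stretch at chr2:31808547-31808618, all on the minus strand. Prlh (ENSMUSG00000090550.2) spans chr1:90953108-90954027 with 2 exons, Npvf (ENSMUSG00000029831.7) chr6:50650672-50654439 with 3 exons and Qrfp (ENSMUSG00000043102.2) chr2:31806166-31810580 with 2 exons. The arginine is codon 51 of the 86 codons of Prlh, codons 93 and 124 of the 188 codons of Npvf and codon 121 of the 124 codons of Qrfp.

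Npvf was the most abundant of the 3 genes in RPKM per length, Prlh the most variable and Qrfp the lowest. Npvf averaged 7.30 ± 2.52 RPKM, Prlh 2.76 ± 2.19 and Qrfp 0.665 ± 0.321 (SD, n = 48). Prlh spanned a 91.4-fold range between libraries, against 4.33-fold for Npvf and 7.73-fold for Qrfp, and no library listed any of them at 0. Fewer cells that express a gene and less RNA per cell cannot be told apart in pooled tissue. Reads behind these values were estimated from the smallest steps between RPKM values, which gave 28.3 to 55.2 M reads per library (median 38.1 M). On that estimate Prlh, whose exons cover 276 bases, rested on 1 to 101 reads per library (median 23), Npvf on 92 to 435 and Qrfp on 32 to 241.

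Hypothalamus markers were present in all series (10 of 10 genes measured). Their summed level was lowest in the late quiet libraries, 1530 to 3740 RPKM against 3120 to 11300 elsewhere. That sum rests mostly on Avp and Oxt, which averaged 3230 and 1570 RPKM, so it does not measure the hypothalamus content. In the limma fits below, 4 of the 10 genes were called higher and 3 lower in late quiet than in early free-moving mice, where 78.5% of all genes were called. The mitochondrial share, the part of the summed RPKM that fell on 13 genes of the mitochondrial genome, was 8.95% to 16.6% in the late quiet libraries and 10.5% to 62.4% in all others. Hindbrain markers, which would accompany the medullary Prlh neurons, summed to at most 1.62 RPKM over 9 genes. Thalamus markers (6 of 6 genes measured) had median sums of 76.2 and 64.6 RPKM in the late quiet unloaded and late quiet free-moving series, against 24.5 to 32.8 RPKM in the other series. Anterior pituitary markers (7 of 8 measured) summed to 12100 RPKM in early unloaded series a number 9, against a median of 8.48 RPKM in that series and at most 32.7 RPKM in the others. Choroid plexus markers (5 of 5) reached 278 and 387 RPKM in single late quiet unloaded and late quiet free-moving libraries and at most 38.0 RPKM in the other series, and striatum markers (5 of 5) ranged from 23.6 to 220.0 RPKM.

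**Figure D1:**
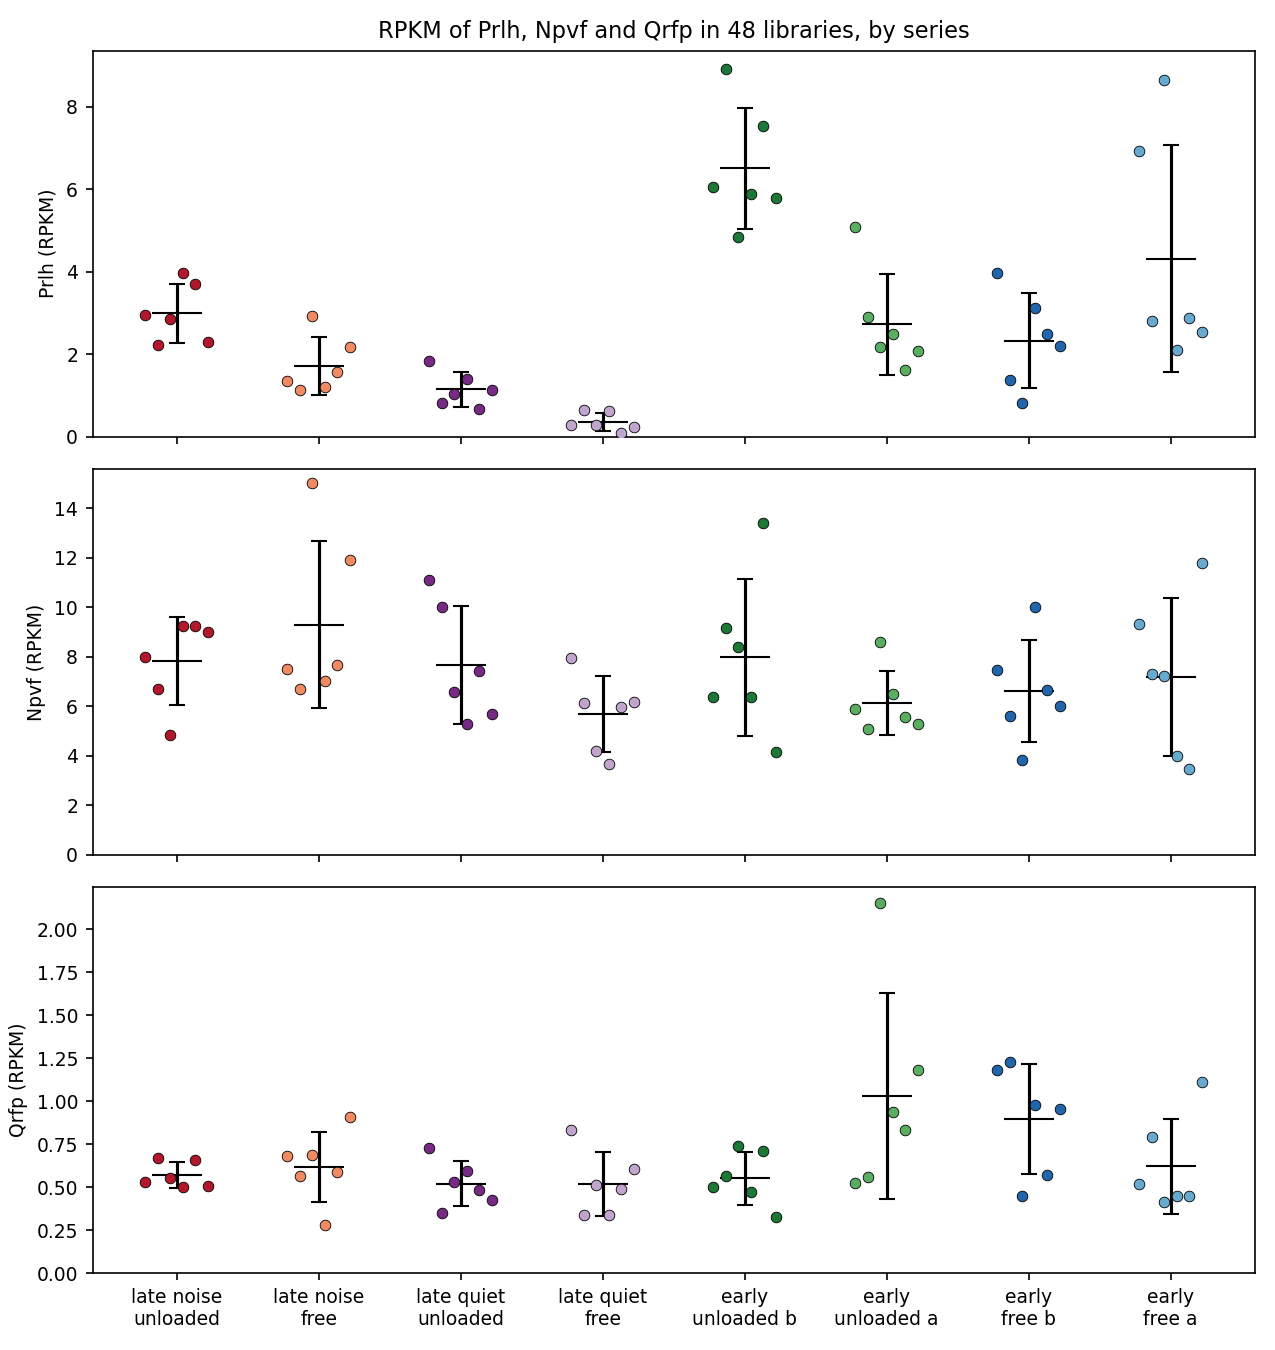
RPKM of Prlh (top), Npvf (middle) and Qrfp (bottom) in each of 48 libraries, by series; points are libraries in the order of their title numbers, the horizontal bar is the mean of 6 and the error bar its SD. Prlh was at most 0.652 RPKM in the late quiet free-moving libraries, where Npvf was 3.69 to 7.94 RPKM.

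Prlh was highest in early unloaded series b and lowest in the late quiet free-moving series. Its lowest, median and highest values were 2.21, 2.89 and 3.97 RPKM in late noise unloaded mice, against 1.13, 1.46 and 2.93 RPKM in late noise free-moving mice. In late quiet unloaded mice they were 0.681, 1.08 and 1.84 RPKM, against 0.0974, 0.287 and 0.652 RPKM in late quiet free-moving mice. The late quiet pair did not overlap and the late noise pair did. Early unloaded series b had 4.84, 5.97 and 8.91 RPKM, and early unloaded series a had 1.61, 2.33 and 5.08 RPKM. Early free-moving series b had 0.822, 2.34 and 3.96 RPKM, and early free-moving series a had 2.11, 2.83 and 8.63 RPKM. By mean RPKM the order was early unloaded b (6.50 ± 1.46), early free-moving a (4.31 ± 2.75), late noise unloaded (2.99 ± 0.717), early unloaded a (2.72 ± 1.23), early free-moving b (2.33 ± 1.14), late noise free-moving (1.72 ± 0.702), late quiet unloaded (1.15 ± 0.422) and late quiet free-moving (0.36 ± 0.223; SD, n = 6 each). Of the 7 pairs of neighbours in this order, the late quiet unloaded and late quiet free-moving series had ranges that did not overlap, and the other pairs overlapped.

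The difference for which Prlh was chosen is described here without a test. In the unloaded early series, b exceeded a by a ratio of means of 2.39, and 5 of 6 libraries of b lay above all of a. In the free-moving early series the ratio of b to a was 0.540, and the 2 highest libraries of a, numbers 9 (8.63 RPKM) and 1 (6.91 RPKM), lay above all of b. Prlh stood higher in b than in a among unloaded mice and lower in b than in a among free-moving mice. Over all genes tested, 0.833% were called between the unloaded series and 0.256% between the free-moving series. Npvf had a ratio of b to a of 1.30 in unloaded and 0.919 in free-moving mice, and Qrfp had 0.535 and 1.44. The mean mitochondrial share was 34.3% in early unloaded series b and 20.5% in early unloaded series a, and 44.5% in early free-moving series b and 41.8% in early free-moving series a. Its part in the difference was not tested.

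Unloading was compared with free movement in each late environment and in the early period. The limma fits used log2(RPKM + 0.5) of the 13685 genes with a mean of at least 0.5 RPKM, with series and title number as terms. Calls required a two-sided p under 0.05 after Benjamini-Hochberg adjustment over those genes, and values after ± are standard errors. Where libraries are said not to overlap, here and above, this describes the named gene. The share of all genes without overlap was not counted, so it is no measure of how unusual the gene is. Differences on this scale understate the change of genes near the added 0.5. For Prlh, series b less series a of one label was 1.17 on it in early unloaded and −0.70 in early free-moving mice. Each late condition was 1 series, so Prlh differences between late conditions include any such difference between series.

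For late unloading in quiet Prlh was called higher and Npvf and Qrfp were uncalled, so that 1 of the 3 genes was called. Over all genes 12.8% were called in either direction, and 1283 of 13685 were called higher. Prlh rose in late quiet unloaded against late quiet free-moving mice by 0.94 ± 0.26 on the log2 scale (limma adjusted p = 0.012), and it was higher at 6 of 6 title numbers. The ratio of mean RPKM was 3.20, and with 0.1 added in place of 0.5 the log2 difference was 1.53. This pair rests on few reads: an estimated 74 over the 6 late quiet unloaded libraries (95% Poisson interval 58.1 to 92.9, exact, counting error only) and 22 over the 6 late quiet free-moving libraries (13.8 to 33.3). Leaving out title number 21 ended the call (log2 0.90, limma adjusted p = 0.056). The mean mitochondrial share was 14.0% in late quiet unloaded and 11.5% in late quiet free-moving libraries, and a fit that also held this share gave a Prlh difference of 0.90 (limma adjusted p = 0.0075). Npvf had 5.29, 6.98 and 11.1 RPKM (lowest, median, highest) in late quiet unloaded mice, against 3.69, 6.05 and 7.94 RPKM in late quiet free-moving mice. The ranges overlapped and the log2 difference was 0.39 ± 0.25 (95% interval −0.11 to 0.89, limma adjusted p = 0.30). Qrfp averaged 0.519 ± 0.131 RPKM in late quiet unloaded and 0.519 ± 0.185 RPKM in late quiet free-moving mice (SD, n = 6 each), with a log2 difference of 0.01 (95% interval −0.34 to 0.36).

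Under noise and low pressure no RF-amide precursor was called between unloaded and free-moving mice, where 0.0146% of all genes were called. Prlh averaged 2.99 ± 0.717 RPKM in late noise unloaded and 1.72 ± 0.702 RPKM in late noise free-moving mice (SD, n = 6 each). It was higher at 5 of 6 title numbers, by 0.68 ± 0.26 on the log2 scale, with a limma adjusted p of 0.75 and an unadjusted p of 0.011. Npvf had −0.20 ± 0.25 and Qrfp −0.04 ± 0.17, with limma adjusted p of 0.82 and 0.94. The unloading differences of Prlh in the late environments were set against each other by an interaction term: the difference under noise less that in quiet was −0.26 ± 0.36 (95% interval −0.99 to 0.47, limma adjusted p = 0.78). It was 0.04 after quantile normalization and −0.71 with 0.1 added in place of 0.5, and was called in neither. Npvf had −0.60 ± 0.35 there, negative at 6 of 6 title numbers (limma adjusted p = 0.37), and Qrfp −0.05 ± 0.25. None of the 3 genes was called, where 4.38% of all genes were.

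Early unloading gave a call for Prlh that depended on which series were set against each other. Over both unloaded and both free-moving series Prlh differed by 0.46 ± 0.18 on the log2 scale (limma adjusted p = 0.033, higher at 6 of 6 title numbers). Prlh was chosen with the values of these same series in view, so this p-value is no independent support. It measures the spread between pools and not between series of one label. The background was high: 52.8% of all genes were called, with a median of 0.23 over all genes, so that Prlh stood 0.23 above that median. That background depended on the series: 8244 of 13685 genes were called for unloaded a less free-moving b and 5748 for unloaded a less free-moving a. For unloaded b, 3 genes were called against free-moving b and 0 against free-moving a. The 12 early unloaded libraries had 1.61, 4.96 and 8.91 RPKM (lowest, median, highest), against 0.822, 2.66 and 8.63 RPKM in the 12 early free-moving libraries. The ranges overlapped, with 1 of the 12 early unloaded libraries above all early free-moving ones. Taken a series at a time, the log2 difference was 1.39 for unloaded b less free-moving b, 0.69 for unloaded b less free-moving a, 0.23 for unloaded a less free-moving b and −0.47 for unloaded a less free-moving a. These pairs contain the difference between a and b for which the gene was chosen, so they carry no test here. The call was lost after quantile normalization (0.24, limma adjusted p = 0.40). With a library or a title number left out, 14 fits lost it and 16 kept it. A fit that also held the mitochondrial share gave 0.60, and as that fit called 1 of 13685 genes, its missed call (limma adjusted p = 0.85) says little about Prlh. Npvf differed by 0.05 ± 0.18 (95% interval −0.30 to 0.41) and Qrfp by 0.01 ± 0.12 (95% interval −0.24 to 0.26), and neither was called.

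The late quiet and early unloading differences were compared by a further interaction term, late less early. It was 0.48 ± 0.31 for Prlh (95% interval −0.15 to 1.12, limma adjusted p = 0.22), 0.34 ± 0.30 for Npvf and 0.00 ± 0.21 for Qrfp. None of the 3 genes was called, where 33.5% of all genes were. With 0.1 added in place of 0.5 the Prlh term was 1.00 and was called (limma adjusted p = 0.046).

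**Figure D2:**
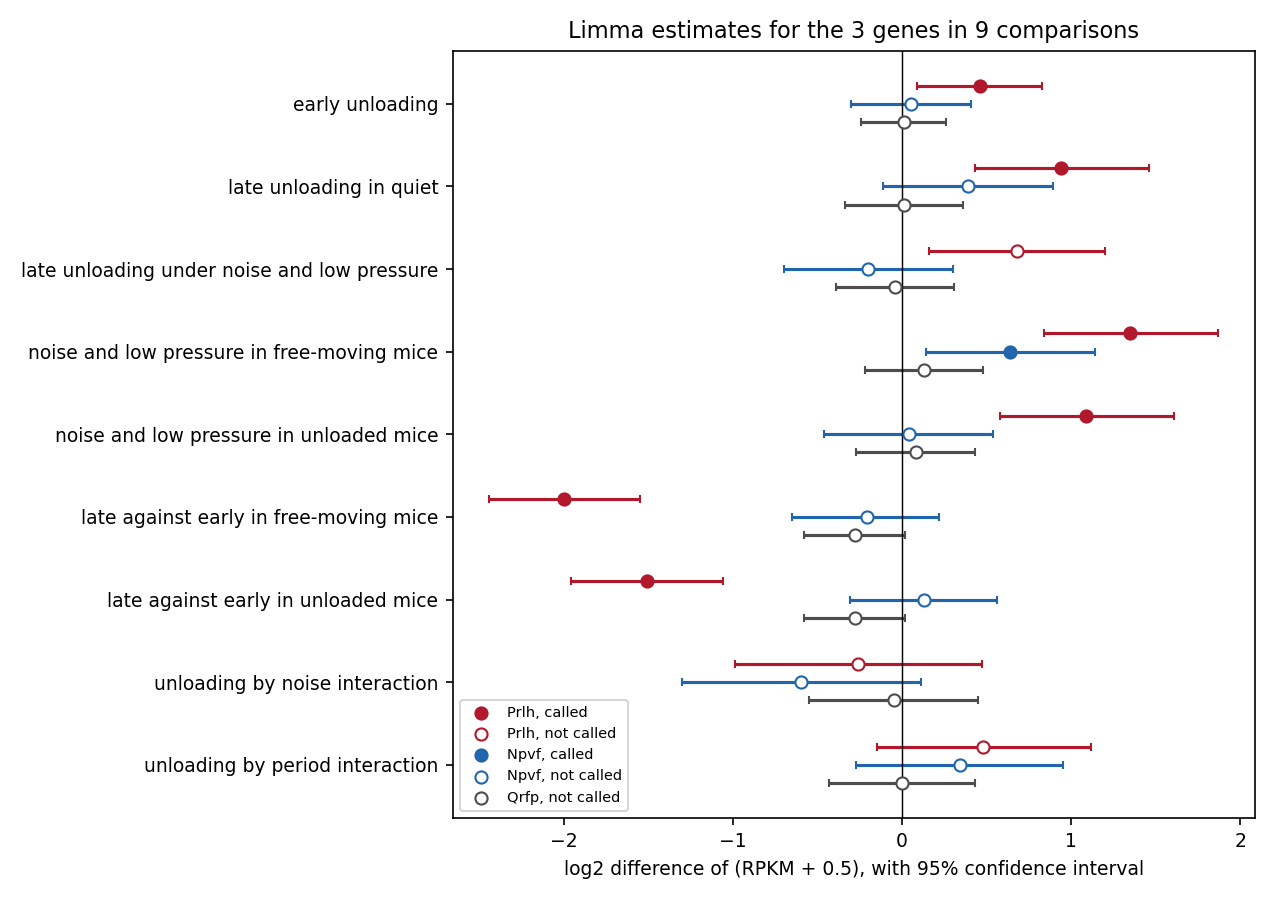
Limma log2 differences of RPKM + 0.5 for Prlh, Npvf and Qrfp in 9 comparisons, with 95% confidence intervals; filled points passed an adjusted p of 0.05. In each row the group named first, unloaded, noise and low pressure or late, is on the plus side; Prlh has 6 filled points, Npvf 1 and Qrfp none.

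Noise with low pressure went with more Prlh in both free-moving and unloaded mice, and with more Npvf in free-moving mice. In free-moving mice 2 of the 3 genes were called higher, where 2897 of 13685 genes were called higher. Of all genes 57.6% were called in either direction, and the median over all genes was −0.15. Prlh had 1.13, 1.46 and 2.93 RPKM in late noise free-moving mice, against 0.0974, 0.287 and 0.652 RPKM in late quiet free-moving mice, and no libraries overlapped. It rose by 1.35 ± 0.26 on the log2 scale (limma adjusted p = 3.1e-05, 6 of 6 title numbers), with a ratio of mean RPKM of 4.78 and a log2 difference of 2.05 when 0.1 was added. Npvf had 6.71, 7.58 and 15.0 RPKM in late noise free-moving mice, against 3.69, 6.05 and 7.94 RPKM in late quiet free-moving mice. It rose by 0.64 ± 0.25 (limma adjusted p = 0.026, 5 of 6 title numbers), although 4 of the 6 late noise free-moving libraries lay within the late quiet range. The Npvf call was lost without title number 9 (0.42, limma adjusted p = 0.16), where the late noise free-moving library held 15.0 RPKM, and also without number 13 (0.60) or 21 (0.59), or without single libraries of numbers 9 and 21 under noise (0.47 and 0.55) and 9 and 13 in quiet (0.57 and 0.55). Qrfp averaged 0.617 ± 0.205 RPKM in late noise free-moving and 0.519 ± 0.185 RPKM in late quiet free-moving mice (SD, n = 6 each) and was not called (0.13 ± 0.17, limma adjusted p = 0.53).

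In unloaded mice 1 of the 3 genes was called under noise and low pressure, and it was higher. Of all genes 52.3% were called in either direction and 924 of 13685 were called higher, with a median of −0.28. Prlh had 2.21, 2.89 and 3.97 RPKM in late noise unloaded mice, against 0.681, 1.08 and 1.84 RPKM in late quiet unloaded mice. Every late noise unloaded library lay above every late quiet unloaded library, and the log2 difference was 1.09 ± 0.26 (limma adjusted p = 0.003, 6 of 6 title numbers). Npvf averaged 7.83 ± 1.77 RPKM in late noise unloaded and 7.68 ± 2.38 RPKM in late quiet unloaded mice (SD, n = 6 each), a log2 difference of 0.04 (95% interval −0.46 to 0.54). Qrfp differed by 0.08 (95% interval −0.27 to 0.43). The mitochondrial share moved with the environment: it averaged 33.6% in late noise unloaded and 14.0% in late quiet unloaded libraries, and 28.3% in late noise free-moving and 11.5% in late quiet free-moving libraries. A fit that also held this share gave a Prlh difference of 1.15 in free-moving mice (limma adjusted p = 0.0014) and 0.90 in unloaded mice, where it was not called (limma adjusted p = 0.15) in a fit that called 0 of 13685 genes. Thalamus markers moved as well, with 4 of 6 lower under noise in free-moving and 5 of 6 in unloaded mice. Of all 13685 genes 4983 and 6238 were called lower there. The part of the thalamus markers in the result was not tested.

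Prlh was lower in the late quiet series than in the early series, with and without unloading. Prlh was chosen with the values of these early series in view, so the p-values given here are no independent support. They measure the spread between pools and not between series of one label, and each late condition was 1 series. In free-moving mice 1 of the 3 genes was called, and it was lower. Of all genes 78.5% were called in either direction and 2460 of 13685 were called lower, with a median of 0.43. Prlh had 0.0974, 0.287 and 0.652 RPKM in the late quiet free-moving libraries, against 0.822, 2.66 and 8.63 RPKM in the 12 early free-moving libraries, with no overlap. It fell by 2.00 ± 0.22 on the log2 scale (limma adjusted p = 2.8e-10, lower at 6 of 6 title numbers). In unloaded mice 1 of the 3 genes was called, and it was lower, where 47.3% of all genes were called in either direction and 1168 of 13685 lower. Prlh had 0.681, 1.08 and 1.84 RPKM in the late quiet unloaded libraries, against 1.61, 4.96 and 8.91 RPKM in the 12 early unloaded libraries, and 1 late library reached into the early range. The fall was 1.51 ± 0.22 (limma adjusted p = 2.9e-05, lower at 6 of 6 title numbers). In fits that also held the mitochondrial share they were −1.67 (limma adjusted p = 0.00011) and −1.37 (limma adjusted p = 0.001). Thalamus markers were higher in the late series for 5 of 6 genes in free-moving and 4 of 6 in unloaded mice. Of all 13685 genes 8283 and 5311 were called higher there. The part of the thalamus markers in the result was not tested.

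Npvf and Qrfp were not called between late and early series. Npvf averaged 5.69 ± 1.54 RPKM in late quiet free-moving mice (n = 6) and 6.89 ± 2.56 RPKM in early free-moving mice (n = 12; SD), a log2 difference of −0.21 ± 0.21 (95% interval −0.65 to 0.22). In unloaded mice it averaged 7.68 ± 2.38 RPKM late and 7.06 ± 2.50 RPKM early, a difference of 0.13 ± 0.21. Qrfp averaged 0.519 RPKM in each late quiet series, against 0.791 ± 0.487 RPKM in early unloaded and 0.758 ± 0.319 RPKM in early free-moving mice (SD, n = 12 each). Its log2 difference was −0.28 ± 0.15 in both free-moving and unloaded mice (limma adjusted p = 0.085 and 0.12). Those values lay 0.71 and 0.49 below the median of all genes, and Qrfp was called lower in both after quantile normalization (−0.49 and −0.43) and with the mitochondrial covariate (−0.81 and −0.51). Npvf was called lower in free-moving mice under the same settings (−0.74 and −0.79). The comparisons of noise, of unloading and of age in quiet free-moving mice all use the late quiet free-moving series, so its low Prlh enters each of them.

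Series means ran from 5.69 to 9.30 RPKM for Npvf and from 0.519 to 1.03 RPKM for Qrfp. Neighbours in an order sorted by mean are prone to overlap, so their overlap below does not compare the ends of the order. Npvf was highest in late noise free-moving mice (9.30 ± 3.36 RPKM), followed by early unloaded b (7.97 ± 3.17), late noise unloaded, late quiet unloaded, early free-moving a (7.18 ± 3.17), early free-moving b (6.60 ± 2.06), early unloaded a (6.15 ± 1.29) and late quiet free-moving mice (5.69 ± 1.54; SD, n = 6 each). Every pair of neighbours in this order overlapped. Qrfp was highest in early unloaded a (1.03 ± 0.600 RPKM) and early free-moving b (0.895 ± 0.321), and the other 6 series averaged 0.519 to 0.621 RPKM, all neighbours overlapping. The highest Qrfp library, early unloaded a number 9 with 2.15 RPKM, was the one with 12100 RPKM of pituitary markers, and without it early unloading gave −0.09 for Qrfp (limma adjusted p = 0.53).

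The balance between Prlh and Npvf changed with the series. The ratio of Prlh to Npvf RPKM averaged 0.396 ± 0.112 in late noise unloaded and 0.183 ± 0.0146 in late noise free-moving mice. It was 0.160 ± 0.0690 in late quiet unloaded and 0.0716 ± 0.0561 in late quiet free-moving mice. In early unloaded series b and a it was 0.897 ± 0.306 and 0.459 ± 0.226, and in early free-moving series b and a 0.340 ± 0.113 and 0.649 ± 0.350 (SD, n = 6 each). Prlh exceeded Npvf in single libraries of early unloaded b and early free-moving a, where the ratio reached 1.39 and 1.19, and in no library of the other series. The late noise free-moving ratios lay within 0.168 to 0.205 while Prlh itself ranged from 1.13 to 2.93 RPKM there. Prlh rested on an estimated 13 to 29 reads per library in that series, too few to resolve so narrow a range. The ratios of every other series spread more widely.

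**Figure D3:**
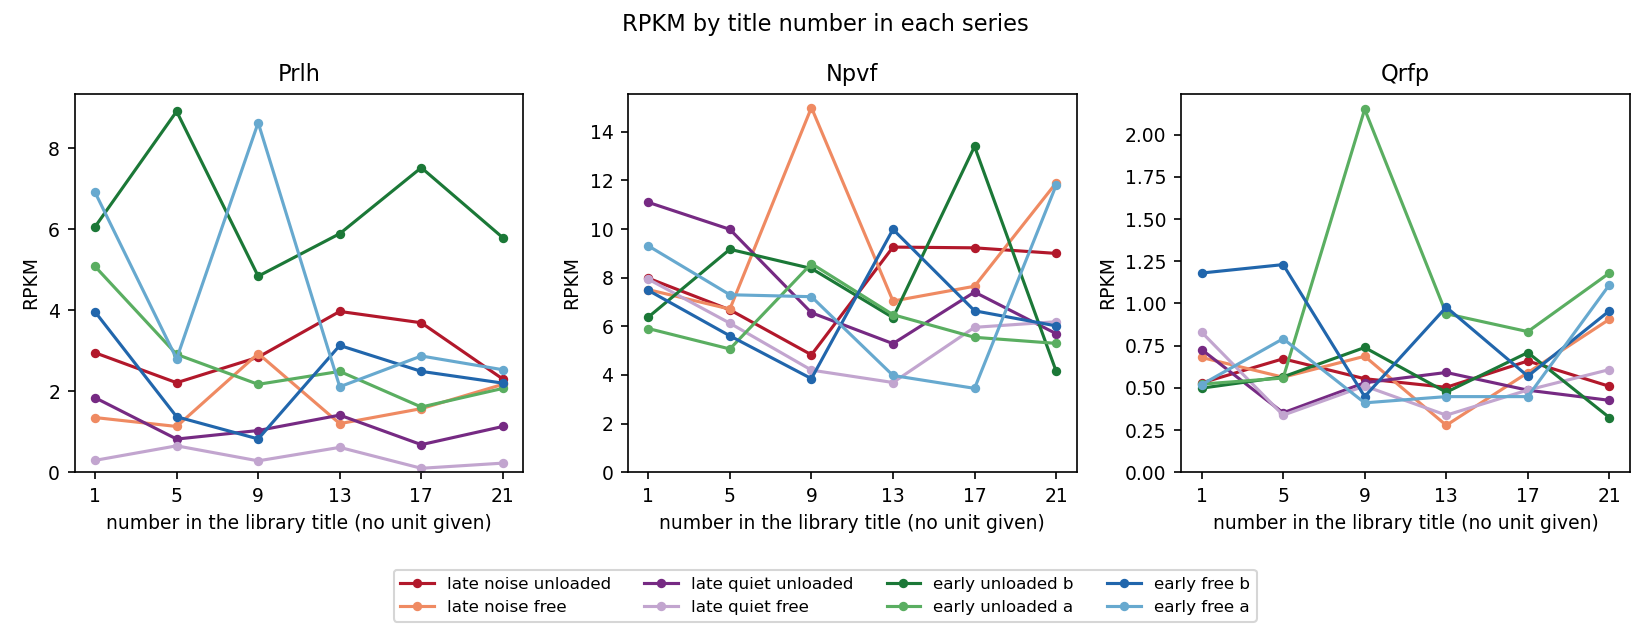
RPKM of Prlh (left), Npvf (middle) and Qrfp (right) against the number in the library title, which has no unit in the labels; each line is 1 series of 6 libraries. The lines peak at different numbers, as for Npvf with 15.0 RPKM at number 9 in late noise free-moving and 13.4 RPKM at number 17 in early unloaded b mice.

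No course over the title numbers was found for the 3 genes. Differences among the 6 title numbers, tested over all series with the series as a term, gave limma adjusted p of 0.46 for Prlh, 0.85 for Npvf and 0.78 for Qrfp, where 0.877% of all genes were called. With the number read as a time of day in hours, which the labels do not say, a sine and cosine with a period of 24 gave limma adjusted p of 0.82, 0.72 and 0.80, where 1.76% of all genes were called. A p that misses the threshold with 1 pool per series and number does not show that the genes lack a daily course.

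Among the other precursors, Npff, whose peptide modulates pain and opioid action, was also low in the late quiet series, and Kiss1, the kisspeptin gene that drives reproductive neurons, was listed at 0 in 46 of 48 libraries. Npff (chr15:102523839-102524942, minus strand) overlaps another annotated gene and the counting is not stated to use strand, so its values are uncertain. Npff averaged 4.31 ± 2.77 RPKM in late noise unloaded and 1.15 ± 0.637 RPKM in late quiet unloaded mice (SD, n = 6 each), and it rose by 1.40 ± 0.33 (limma adjusted p = 0.003). It averaged 3.33 ± 1.49 RPKM in late noise free-moving and 0.825 ± 0.587 RPKM in late quiet free-moving mice (SD, n = 6 each), and it rose by 1.51 ± 0.33 (limma adjusted p = 0.00023). Against the early series the late quiet series had −2.16 ± 0.29 in free-moving and −1.13 ± 0.29 in unloaded mice (limma adjusted p = 1.5e-08 and 0.0028). After quantile normalization these 4 differences were 1.65, 1.55, −2.49 and −1.33 in the order given, and all 4 were called. With the mitochondrial covariate these 4 differences were 0.58, 0.64, −0.75 and −0.52 in the order given, and none was called, although the fit for unloaded mice under noise called 0 of 13685 genes. Early unloading went the other way from Prlh: Npff fell by 0.68 ± 0.24 (limma adjusted p = 0.018). The difference was −0.90 after quantile normalization (limma adjusted p = 0.025) and −0.06 with the covariate.

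**Figure D4:**
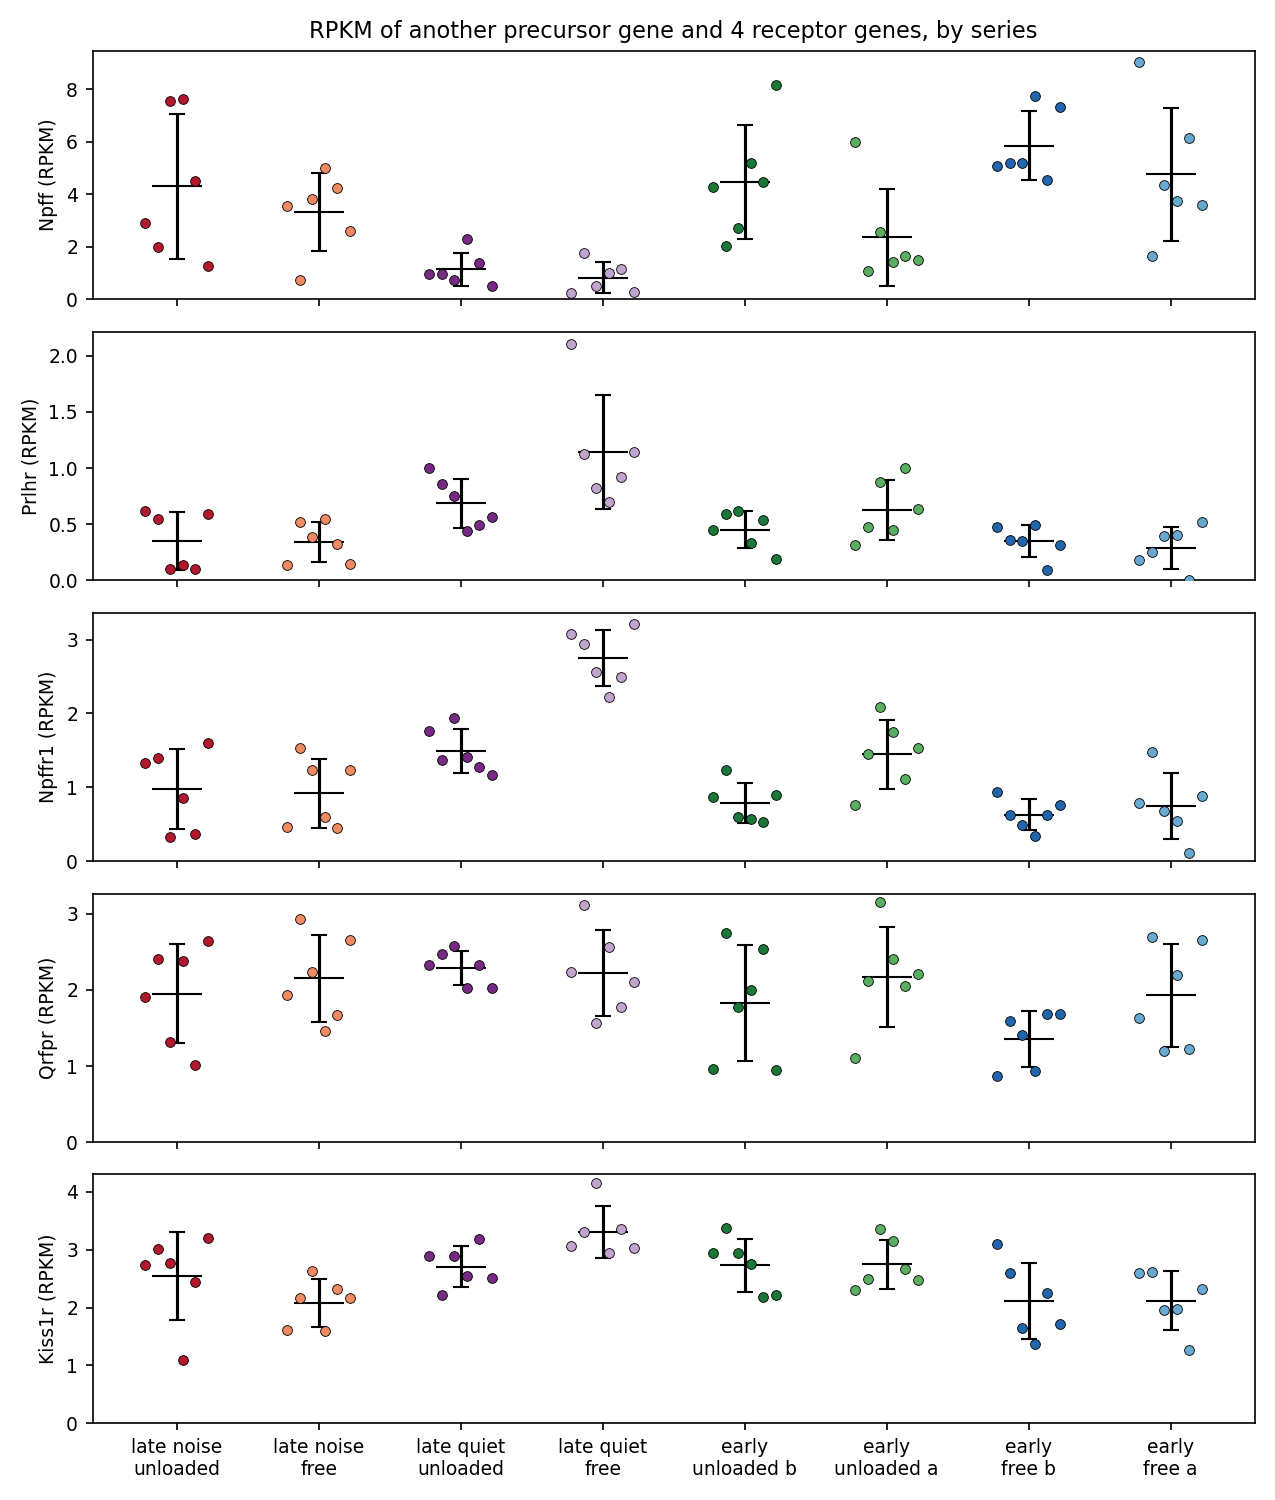
RPKM of Npff and of the receptor genes Prlhr, Npffr1, Qrfpr and Kiss1r in each of 48 libraries, by series; points are libraries, the horizontal bar is the mean of 6 and the error bar its SD. Npffr1 and Prlhr have their highest means, 2.75 and 1.14 RPKM, in the late quiet free-moving series, where Prlh and Npff have their lowest.

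Of the receptor genes, Npffr1, Prlhr and Kiss1r had their highest means in the late quiet free-moving series, where Prlh was lowest, and Qrfpr averaged 1.36 to 2.29 RPKM over the series. Of the 5 receptors 4 were tested, since Npffr2 averaged 0.0757 RPKM. In free-moving mice under noise 0 of the 4 were called higher and 3 lower (median log2 −0.75, against −0.15 over all genes), where 57.6% of all genes were called and 4983 of 13685 were lower. Prlhr, the receptor of prolactin-releasing peptide, averaged 0.344 ± 0.178 RPKM in late noise free-moving and 1.14 ± 0.507 RPKM in late quiet free-moving mice (SD, n = 6 each), with no overlap. It fell by 0.94 ± 0.19 (limma adjusted p = 8.3e-05), and still differed with the mitochondrial covariate (−0.58, limma adjusted p = 0.015). Npffr1, the receptor of the Npvf peptides, averaged 0.921 ± 0.469 RPKM in late noise free-moving and 2.75 ± 0.382 RPKM in late quiet free-moving mice (SD, n = 6 each). It fell by 1.25 ± 0.19 (limma adjusted p = 9.6e-07; −0.74 and 0.00023 with the covariate). Kiss1r, the kisspeptin receptor, fell by 0.57 ± 0.15 (limma adjusted p = 0.0017), which was not called with the covariate (−0.22). Qrfpr, the receptor of the Qrfp peptide, was not called (−0.04 ± 0.19).

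Between late quiet and early free-moving mice 4 of the 4 receptors were called higher and 0 lower (median 0.77, against 0.43 over all genes), where 78.5% of all genes were called and 8283 of 13685 were higher, so the count is near the background. Npffr1 rose by 1.50 ± 0.16 (limma adjusted p = 2.1e-10), Prlhr by 0.98 ± 0.16, Kiss1r by 0.57 ± 0.13 and Qrfpr by 0.37 ± 0.16 (limma adjusted p = 1.3e-06, 0.00018 and 0.035). The direction of Qrfpr turned to −0.08 after quantile normalization and −0.21 with the covariate, and Kiss1r was at 0.05 and 0.00. With the covariate 1 of the 4, Npffr1, was called (0.66, limma adjusted p = 0.0029). In late quiet unloaded against late quiet free-moving mice Npffr1 fell by 0.72 ± 0.19 (limma adjusted p = 0.01), averaging 1.49 ± 0.300 RPKM against 2.75 ± 0.382 RPKM with no overlap (SD, n = 6 each), and it fell under quantile normalization and the covariate too (−0.66 and −0.60). Prlhr had −0.44 ± 0.19 there and was not called (limma adjusted p = 0.12), but was after quantile normalization (−0.47, limma adjusted p = 0.032). In unloaded mice 2 of 4 receptors fell under noise, Prlhr by 0.52 and Npffr1 by 0.50, where 52.3% of all genes were called, and after quantile normalization 0 of 4 were. By limma 0 of 4 were called between late and early unloaded mice and 0 of 4 for unloading under noise, where 47.3% and 0.0146% of the 13685 tested genes were (7570 and 855 of them had an unadjusted p under 0.05). Early unloading gave 3 of 4 higher, Npffr1 by 0.43, Prlhr by 0.34 and Kiss1r by 0.33, where 52.8% of all genes were called. That share depended on which early series were set against each other, as given above. After quantile normalization 0 of 4 were called.

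Peptide processing and amidation were followed by 6 genes, all tested: Pcsk1, Pcsk2, Cpe, Pam, Qpct and Scg5. Under noise 0 were higher and 5 lower in free-moving mice (median −0.57, against −0.15 over all genes), and 0 higher and 5 lower in unloaded mice (median −0.44, against −0.28). Over all 13685 genes 57.6% and 52.3% were called, and 4983 and 6238 were lower. Pcsk2 and Pcsk1, the prohormone convertases, fell by 0.67 and 0.74 in free-moving mice (limma adjusted p = 0.00017 and 0.0019). Pam, which makes the terminal amide from the glycine, fell by 0.64 and Cpe, the carboxypeptidase, by 0.46 (limma adjusted p = 0.0013 and 0.0014). Between late quiet and early free-moving mice 5 were higher and 0 lower (median 0.86, against 0.43 over all genes), where 78.5% of all genes were called. After quantile normalization 5 were lower under noise in free-moving mice and 2 in unloaded mice, where 8915 and 5888 of 13685 genes were called. Between late and early free-moving mice 5 were then higher, where 10585 genes were called. With the mitochondrial covariate none of these directions was called: 0 of 6 were lower under noise in free-moving mice and 1, Scg5, was higher (0.54), and between late and early 0 of 6 were higher and Scg5 was lower (−0.56). Pan-neuronal markers moved with these processing genes, with 5 of 6 lower under noise in free-moving mice and 6 of 6 higher between late and early free-moving mice.

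Other peptide and marker genes of the dorsomedial and lateral hypothalamus, 12 of 13 tested, were called in both directions. Under noise in free-moving mice 5 were higher and 1 lower, against 6 and 1 after quantile normalization and 7 and 0 with the covariate, and 57.6% of all genes were called. Cartpt, the precursor of an appetite-lowering peptide, rose by 1.12, Hcrt, the orexin precursor, by 0.87 and Gal, the galanin gene, by 0.58 (limma adjusted p = 1.2e-08, 0.00019 and 4e-04), and Lhx9, a transcription factor, fell by 0.58 (limma adjusted p = 0.015). Late unloading in quiet called 0 of the 12 by limma, where 12.8% of the 13685 tested genes were called and 3805 had an unadjusted p under 0.05. Of 8 genes of the releasing-hormone axes on which RF-amide peptides act, 7 were tested. In free-moving mice under noise 4 of the 7 were called, where 57.6% of all genes were, so the count is near the background. Avp, the vasopressin gene, by 1.86, Oxt, the oxytocin gene, by 1.40 and Gnrh1, the gonadotropin-releasing hormone gene, by 1.26 were higher (limma adjusted p = 8.3e-08, 6.7e-08 and 4.4e-05), and Prlr, the prolactin receptor, fell by 0.70 (limma adjusted p = 0.00018). For late unloading in quiet 2 of the 7 were called higher, where 12.8% of all genes were called. Avp was higher by 0.82 and Crh, the corticotropin-releasing hormone gene, by 0.54 (limma adjusted p = 0.022 and 0.032).

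Over the 48 values as they are, the 2 genes nearest to Prlh were peptides of the arcuate nucleus, and they were not among the nearest once series and title-number means were removed. Over the 48 libraries, Pearson r of log2(RPKM + 0.5) with Prlh was 0.84 for Agrp and 0.83 for Npy, the appetite-raising peptides of one neuron type, and 0.80 for each of Rps27, Fis1 and Prkag1. Agrp averaged 50.4 ± 27.1 RPKM in late noise unloaded and 14.7 ± 5.77 RPKM in late noise free-moving mice, and 10.1 ± 4.14 RPKM in late quiet unloaded and 3.74 ± 1.55 RPKM in late quiet free-moving mice (SD, n = 6 each). These libraries share series, depth and mitochondrial share, and after the series and title-number means were removed r was 0.38 for both genes, at ranks 251 and 243. On that scale the nearest genes were Clic1 (0.61), Bst2 (0.57), S100a6 (0.57), Crygn (0.56) and Myl4 (0.56). Npvf came closest to Klhdc8b (0.71), Resp18 (0.67), Rnaset2b, Irf1 and Rpn2 (0.66 each), and with the means removed to Ndn and Nnat (0.76 each), Smim19 (0.74), Bsx and Klhdc8b (0.73 each). Qrfp came closest to Il25 (0.59), Ndn and Gabre (0.58 each), Marcksl1 and Hspb6 (0.57 each), and with the means removed to Eif2b3 (0.75), Cirbp (0.73), Tm4sf5, Hexim2 and Ctps2 (0.70 each). Prlh and Npvf had r = 0.29 over the 48 values and 0.39 with the means removed, Prlh and Qrfp 0.08 and −0.07, and Npvf and Qrfp 0.32 and 0.53.

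**Figure D5:**
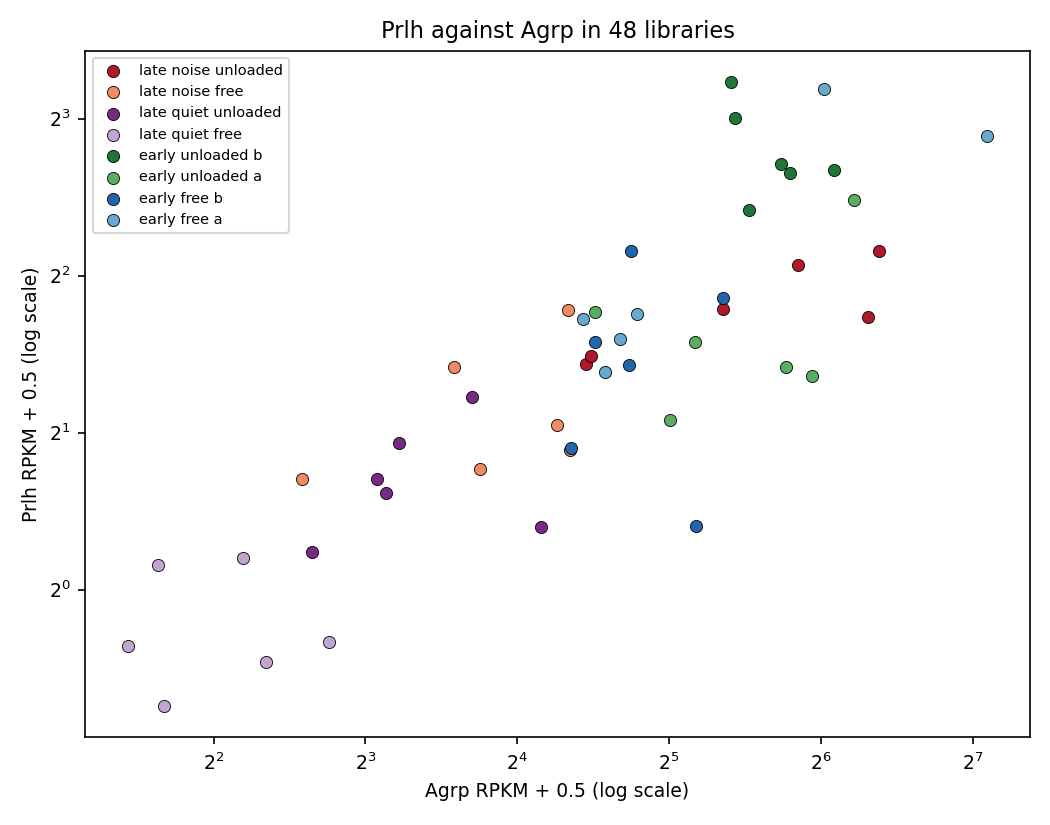
Prlh against Agrp, each as RPKM + 0.5 on a log scale, in 48 libraries coloured by series. The late quiet free-moving libraries lie at the low end of both axes, and within the early unloaded series b Prlh varies between 4.84 and 8.91 RPKM with Agrp between 41.9 and 67.3 RPKM.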

How the data were processed

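RNA from 48 pools of mouse hypothalamus was sequenced; the authors deposited RPKM values per gene. Per the submitters' processing notes, CASAVA 1.8 and HISAT were used; which HISAT version, genome build and gene annotation they used is not given in the sources used here. Positions and sequences printed are those of GENCODE M21 on GRCm38, matched by symbol. RPKM is a share of a total, so a change in very abundant transcripts shifts all other values. Differences were fitted with limma 3.58.1 in R 4.3.3 on log2(RPKM + 0.5), mean RPKM of at least 0.5, all 48 libraries, terms for series and title number, trended variance. The members and lists were chosen with earlier results of these data known; named genes are all RF-amide genes, up to 4 called members of other lists with the smallest p, and the 5 nearest genes by correlation. Libraries of one title number deviated together only weakly (median r 0.08 over 168 pairs, against −0.017 over 840 others). Each series held each number once, and the number was a term of the design and not a subject. No libraries were identical (highest r 0.995). On simulated data with known changes the late quiet unloading fit over 13685 genes recovered 21 of 50 genes changed by 0.5, 45 of 50 by 1.0 and 50 of 50 by 2.0 on the log2 scale, with 4 calls among 13485 unchanged genes. The simulated noise was independent for each gene and library, with no difference between series of one label. Those counts therefore do not show how such differences, or a shifting mitochondrial share, act on the calls. Read numbers were estimated from RPKM steps with exon lengths of 21191 genes; 56.6% to 69.2% of values up to 12 reads came out whole within 0.02 reads, against a median of 1.7% at other depths, and 47 of 48 Prlh values within 0.1 reads. Alternatives were a pseudocount of 0.1, no filter, quantile normalization, a covariate for the mitochondrial share (log2 odds), no term for the title number, only the series compared, array weights, each title number or library left out, and each pair of early series. For receptor, precursor and processing genes other than the 3, the quantile and covariate values were added after seeing the data.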

Additional observations from a re-analysis of the deposited data

Results flagged for a closer look

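Single libraries stood apart from the other 5 of their series by Dixon's criterion in 8 of the 72 groups of 6 checked over 9 RF-amide genes, where chance flags about 1 in 20. Prlh had 5.08 RPKM and Npff 6.01 RPKM in early unloaded series a number 1. Prlhr had 2.11 RPKM in late quiet free-moving number 1. Npffr2, which was too low to be tested, had 0.195 RPKM in late noise unloaded number 13, 0.226 RPKM in late noise free-moving number 1 and 0.0 RPKM in late quiet unloaded number 13. Kiss1r had 1.09 RPKM in late noise unloaded number 13 and 4.15 RPKM in late quiet free-moving number 9. Without early unloaded series a number 1 the early unloading difference of Prlh was 0.40 (limma adjusted p = 0.052).

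The unloading difference of 4 genes differed between the periods by the interaction term, late less early. It was 1.03 for Npff, −0.58 for Kiss1r, −1.15 for Npffr1 and −0.78 for Prlhr (limma adjusted p = 0.047, 0.018, 0.0011 and 0.013), where 33.5% of all genes were called. With the mitochondrial share as a covariate Npffr1 alone of these was called (−0.67, limma adjusted p = 0.017).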

How the results depend on the processing

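Of 1221 values from 33 results under the alternatives, 1175 kept their side of the threshold, 29 lost a call, 16 gained one and 1 called value turned sign. Of the 1175, 81 turned sign without a call in either fit. Prlh kept its direction and call under every alternative run for noise in free-moving mice (1.20 to 1.53 with libraries left out) and for late against early in both states. For early unloading Prlh was not called without the filter (0.46), after quantile normalization (0.24), with the mitochondrial covariate (0.60, in a fit that called 1 of 13685 genes) or with only the series compared (0.46), and ranged from 0.31 to 0.59 with libraries or title numbers left out. Of those leave-one-out fits 14 lost the call (limma adjusted p = 0.051 to 0.18) and 16 kept it. The early pairs, counted above but given as values with no test, were 1.39, 0.69, 0.23 and −0.47. The value counted as turned in sign is the last of these. With libraries or title numbers left out, late unloading in quiet ranged from 0.82 to 1.09 for Prlh, and noise in free-moving mice from 0.42 to 0.78 for Npvf. Quantile normalization gave 0.77 and 0.87 for these. The covariate fit for noise in unloaded mice, which called 0 of 13685 genes, gave 0.90 for Prlh without a call. A pseudocount of 0.1 called the Prlh period interaction (1.00, adjusted p 0.046).

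Calls gained for late against early in free-moving mice were Npvf after quantile normalization (−0.74) and with the covariate (−0.79), and Qrfp after quantile normalization (−0.49), with the covariate (−0.81) and with array weights (−0.23), with −0.36 to −0.17 when libraries were left out. In unloaded mice Qrfp gained calls at −0.43, −0.51 and −0.31 under the same settings. The covariate also called Qrfp for noise in free-moving mice (0.46). Npvf was called for late unloading in quiet with only the series compared (0.39) and array weights (0.34), and for early unloading with array weights (0.31). The cause of these changes was not tested. Leaving out the replicate block, the term for the title number, changed no call; the Prlh value for late unloading in quiet was then 0.94 (adjusted p 0.015). The few reads of Prlh in the late quiet series limit the precision of its fold there.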
